A study of Mus musculus with 6 samples.

Results

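The genes described here are those of class I antigen presentation in mouse liver: the classical class I heavy chain genes H2-K1 and H2-D1, the Qa-region heavy chain genes H2-Q4, H2-Q6, H2-Q7 and H2-Q10, the T-region gene H2-T23, the light chain gene B2m, the peptide transporter gene Tap1 and Nlrc5, which encodes the transactivator of the class I genes. They were taken from the deposited table by gene symbol, and all 10 were among its 15092 genes. All 10 also passed the filter on low counts that left 13816 genes for testing. Polyadenylated RNA from liver was sequenced in 6 libraries, 3 of wild-type mice (WT) and 3 labelled as knockout of Cry1 (CRY1 KO), a repressor of the circadian clock. All came from the C57BL/6J strain, and the labels call the cell type hepatocyte without naming a sort. The labels give no age, sex, time of day, feeding state or allele, do not say whether the libraries came from separate animals, and carry a prefix (NC) that they do not explain. The p-values below therefore measure the spread between these libraries, which may be technical.

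Class I molecules sit on the surface of nucleated cells and show peptides from the cell's own proteins to CD8 T cells. Peptides are cut by the proteasome, carried into the endoplasmic reticulum by the transporter of TAP1 and TAP2, and bound there by a heavy chain paired with β2-microglobulin, the product of B2m. NLRC5 binds no DNA by itself. It is recruited to class I promoters by the RFX complex, NF-Y and CREB family factors, which sit on a promoter module of X and Y boxes, while interferons act through a separate response element and NF-κB through an upstream site. In liver, the bulk of cells are hepatocytes, and Kupffer cells, endothelial cells and lymphocytes also carry class I molecules. H2-Q10 is unusual in that its product is secreted, and it is made chiefly by the liver.

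The promoters of these genes are shown because the genes share a transactivator and their differences between the groups are compared below. Promoter windows were present in the RefSeq table (build GRCm38.p6) for 9 of the 10 genes, Nlrc5 being the other. The 250 bases before each start were searched on both strands for 6 motifs. They were the NF-κB site (the first run of capitals in the H2-K1 stretch), the interferon-stimulated response element (GAAA, 2 bases of any kind, GAAA), the form of that element found in class I genes (the second run of capitals in the H2-K1 stretch, read on the other strand), the CCAAT motif of the Y box (ATTGG), the core of the X2 box (TGACG), and the interferon-γ activated site TTCNNNGAA. The class I form, TGACG and the stretches to print were chosen after the sequences were seen. All stretches have the same length, begin 20 bases before the interferon-type motif, run 5′ to 3′ toward the gene, and have the motifs found in capitals. For H2-K1, the second of its listed starts was used.
H2-K1, chr17:34000335-34000459, minus strand: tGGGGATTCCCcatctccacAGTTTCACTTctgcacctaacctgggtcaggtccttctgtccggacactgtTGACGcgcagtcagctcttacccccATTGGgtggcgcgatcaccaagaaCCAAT
H2-D1, chr17:35262922-35263046, plus strand: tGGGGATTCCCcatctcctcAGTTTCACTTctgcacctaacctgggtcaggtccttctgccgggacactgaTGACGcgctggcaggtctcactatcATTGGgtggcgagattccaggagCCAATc
H2-Q4, chr17:35379442-35379566, plus strand: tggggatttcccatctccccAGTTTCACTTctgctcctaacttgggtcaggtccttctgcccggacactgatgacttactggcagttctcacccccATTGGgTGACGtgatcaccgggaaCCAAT
H2-Q6, chr17:35424676-35424800, plus strand: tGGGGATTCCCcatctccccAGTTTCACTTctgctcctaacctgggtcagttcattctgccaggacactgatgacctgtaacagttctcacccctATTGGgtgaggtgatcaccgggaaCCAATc
H2-Q7, chr17:35439020-35439144, plus strand: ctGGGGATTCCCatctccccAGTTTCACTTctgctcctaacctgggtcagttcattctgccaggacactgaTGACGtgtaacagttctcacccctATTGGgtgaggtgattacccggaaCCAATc
H2-Q10, chr17:35469912-35470036, plus strand: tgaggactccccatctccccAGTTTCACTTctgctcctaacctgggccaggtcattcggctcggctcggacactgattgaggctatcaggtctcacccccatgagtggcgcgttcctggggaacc
H2-T23, chr17:36032721-36032845, minus strand: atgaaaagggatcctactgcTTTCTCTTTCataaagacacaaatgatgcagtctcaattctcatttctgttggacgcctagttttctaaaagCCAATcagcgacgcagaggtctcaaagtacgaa
B2m, chr2:122147528-122147652, plus strand: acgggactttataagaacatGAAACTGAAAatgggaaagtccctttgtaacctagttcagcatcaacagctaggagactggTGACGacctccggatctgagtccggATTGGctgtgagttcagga

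All 6 heavy chain genes of the K, D and Q regions held the class I form of the interferon element, which was present in 0.128% of 32851 promoter windows of the same length. The NF-κB letters stood 5′ of it in H2-K1, H2-D1, H2-Q6 and H2-Q7 and were present in 0.0852% of all windows. Only these exact letters were searched, and similar letters at that place in H2-Q4 were not counted. The other genes may thus hold variants of the NF-κB site. H2-K1, H2-D1 and H2-Q7 held TGACG 51 bases after the first letter of the interferon element. In H2-Q4 the same letters lay at 82 bases, and H2-Q6 and H2-Q10 held none. ATTGG was found at 75 or 76 bases in H2-K1, H2-D1, H2-Q4, H2-Q6 and H2-Q7 but not in H2-Q10. TGACG and ATTGG are common, at 17.8% and 33.8% of all windows. B2m and H2-T23 held the general interferon element (2.98% of windows). From the first letter of that element, B2m also held TGACG at 61 and ATTGG at 86 bases, and H2-T23 held CCAAT at 72 bases. Tap1 held TGACG and CCAAT but neither interferon form. TTCNNNGAA, in 7.02% of windows, was found in none of the 9 genes. The H2-Q6 and H2-Q7 stretches were 96.0% identical over 126 alignment columns, against 83.3% for H2-Q6 and H2-K1 and 77.1% for H2-Q10 and H2-K1. No matches of different motifs overlapped in these stretches, and they describe letters, not binding.

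The likeness extends to the transcripts, which bears on how far single heavy chain genes can be counted apart. Of all 50-base windows in the longest coding transcript (GENCODE M21), 34.9% of those of H2-Q7 and 32.0% of those of H2-Q6 also occurred in transcripts of other genes. H2-Q6 held 19.3% of the windows of H2-Q7. The share was 28.8% for H2-T23, 24.3% for H2-Q4, 14.3% for H2-D1, 8.79% for H2-K1 and 8.03% for H2-Q10, and it was 0.861% for Tap1. B2m and Nlrc5 shared none. Not all of this sharing is with class I genes, as Olfr1238 held 4.07% of the windows of H2-Q4 and Efr3a 4.76% of those of H2-Q6. Values of H2-Q4, H2-Q6, H2-Q7 and H2-T23 thus depend on how shared reads were assigned and are uncertain for that reason. Exons of Tap1 overlapped 212 exon bases of Psmb9 on the opposite strand, those of H2-Q4 overlapped 496 of Gm11131, and those of Nlrc5 overlapped 78 of 9330175E14Rik. Whether counting used strand is not given in the sources used here.

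Library totals ran from 79708703 to 91316332 estimated counts, and the 10 genes took between 0.4196% and 0.5478% of a library. Cry1 itself averaged 6.31 ± 1.32 CPM in WT against 6.19 ± 0.88 CPM where the label is CRY1 KO (SD, n = 3 each), which differ by -0.03 on the log2 scale with an SE of 0.19 (edgeR adjusted p = 0.954). A value for the whole gene cannot show whether exons are missing, so the labels are not checked by it, and each direction below is that of the libraries labelled CRY1 KO against WT. CPM are taken on library sizes scaled with edgeR's TMM factors. Differences are on the log2 scale, CRY1 KO minus WT, from edgeR's quasi-likelihood test, and a gene passed where its Benjamini-Hochberg adjusted p, computed across the 13816 genes, was below 0.05. Hepatocyte markers were abundant in each library, with a summed level of 73893 to 83500 CPM in WT and 80585 to 90171 CPM in CRY1 KO. Among these 8 markers the regulator gene Hnf4a rose by a log2 difference of 0.73 (edgeR adjusted p = 0.0389), with 353.1 to 479.1 CPM in WT and 612.9 to 717.1 CPM in CRY1 KO. Markers of other cell types were also present, so the libraries are not of hepatocytes alone. WT 1 stood apart in markers of Kupffer cells and of blood, given beside the results below.

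Per kilobase of the longest coding transcript, B2m had the highest level in WT, at 1657 ± 200.3 CPM per kilobase (SD, n = 3). H2-Q10 followed at 927.2 ± 183.5 and H2-K1 at 649.7 ± 162.0 CPM per kilobase, and these neighbours overlapped between WT libraries. The level per kilobase was 188.2 ± 36.6 CPM for H2-D1 and 92.3 ± 11.7 CPM for H2-T23. The remaining Q genes were far lower, with H2-Q7 at 27.9 ± 4.17, H2-Q4 at 18.3 ± 1.83 and H2-Q6 at 8.67 ± 1.10 CPM per kilobase. Tap1 stood at 6.70 ± 0.48 CPM per kilobase, and the regulator gene Nlrc5 was the lowest at 2.51 ± 0.33. The order was the same in the libraries labelled CRY1 KO, apart from H2-Q6 (4.86 ± 0.51) and Tap1 (4.96 ± 0.40), which overlapped. Levels of H2-Q10, H2-K1 and H2-D1 depend on the transcript length chosen: with the median length, WT levels were 1075 for H2-K1, 1066 for H2-Q10 and 974.4 CPM per kilobase for H2-D1. The median was 978.5 bases for H2-K1 and 406 for H2-D1, against 1619 and 2102 for the longest transcripts. The H2-D1 level on the median thus rests on a short annotated transcript and is uncertain.

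Of the 10 genes, 3 fell in the libraries labelled CRY1 KO and 0 rose: the transactivator gene Nlrc5 and the neighbouring Q genes H2-Q6 and H2-Q7. H2-Q6 fell to 56.1% of its WT level, Nlrc5 to 59.9% and H2-Q7 to 64.6%. H2-K1, H2-D1, H2-Q4, H2-Q10, H2-T23, B2m and Tap1 did not pass. Over all tested genes 1.7% were called (235 of 13816), 0.644% lower and 1.06% higher (89 and 146 genes), a split of 111 and 116 under upper quartile scaling and of 54 and 59 without scaling. All 10 differences were negative, where 52.7% of all tested genes were negative, and the median difference was -0.42 against -0.02 over all tested genes. In 6 of the 10 genes each library labelled CRY1 KO lay below each WT library, against 12.7% of all tested genes. These genes were chosen with earlier results of these data known. For the counts given for the lists below, 2860 of the 13816 tested genes had an unadjusted p under 0.05 in edgeR. In the lower direction these were 9.84% of tested genes. Over all genes DESeq2 called 1284 (549 lower) and limma 303 (113 lower).

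Nlrc5 stood at 21.2, 16.3 and 19.5 CPM in WT 1, 2 and 3, and at 12.9, 11.1 and 10.2 CPM in CRY1 KO 1, 2 and 3. The groups did not overlap. The means were 19.0 ± 2.50 and 11.4 ± 1.35 CPM (SD, n = 3 each), and Nlrc5 fell by 0.74 on the log2 scale (SE 0.13, edgeR adjusted p = 0.0407). Of all tested genes, 5.56% had a lower difference.

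H2-Q6, whose product is a Qa-2 type class I chain, stood at 20.7, 16.4 and 17.2 CPM in WT and at 9.081, 10.095 and 11.224 CPM in CRY1 KO. The groups were well apart. The log2 difference was -0.83 (SE 0.13, edgeR adjusted p = 0.0273), and 4.34% of tested genes had a lower one. H2-Q7, its close copy, which also encodes Qa-2, stood at 48.6, 43.1 and 35.9 CPM in WT and at 26.2, 26.6 and 29.6 CPM in CRY1 KO. Here too no WT library reached down to the other group, and the log2 difference was -0.63 (SE 0.12, edgeR adjusted p = 0.0465). Since the pair share sequence, their counts were also summed before the fit. The sum was 69.3, 59.4 and 53.1 CPM in WT and 35.3, 36.7 and 40.9 CPM in CRY1 KO, and its log2 difference was -0.69 (SE 0.12, edgeR adjusted p = 0.0348).

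The calls of Nlrc5, H2-Q6 and H2-Q7 depended on the libraries in the fit. Each kept a negative difference in all 14 alternatives, between -0.84 and -0.65 for Nlrc5, -0.91 and -0.73 for H2-Q6, and -0.74 and -0.52 for H2-Q7. Each call was lost without WT 2 and without any of CRY1 KO 1, 2 and 3, with adjusted p of 0.0829 to 0.172 for Nlrc5, 0.0863 to 0.136 for H2-Q6 and 0.143 to 0.177 for H2-Q7. All 3 calls held without WT 1 and without WT 3. Without scaling of the libraries, those of Nlrc5 (edgeR adjusted p = 0.0524) and H2-Q7 (0.0602) were lost.

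H2-Q4 stood at 29.9, 32.2 and 36.4 CPM in WT and at 22.1, 22.9 and 26.3 CPM in CRY1 KO. The groups did not overlap, yet the gene did not pass (log2 difference -0.46, SE 0.11, edgeR adjusted p = 0.0719). Tap1, at 19.3, 21.4 and 18.7 CPM in WT and 15.99, 14.2 and 13.8 CPM in CRY1 KO, likewise did not overlap and did not pass (log2 difference -0.43, SE 0.10, edgeR adjusted p = 0.0724). Both passed in DESeq2 (adjusted p = 0.00963 for H2-Q4 and 0.0121 for Tap1). With H2-Q4, H2-Q6 and H2-Q7 summed, the log2 difference was -0.61 (SE 0.09, edgeR adjusted p = 0.0273).

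Among the classical genes, H2-K1 stood at 1293, 1089 and 773 CPM in WT and at 906, 889 and 847 CPM in CRY1 KO. WT 1 and WT 2 were high and WT 3 was the lowest of all 6 libraries, so the groups overlapped (log2 difference -0.26, SE 0.17, edgeR adjusted p = 0.425). The 95% interval of its log2 difference, from limma on log2 CPM, ran from -0.62 to 0.17. H2-D1 stood at 474, 392 and 321 CPM in WT and at 288, 299.9 and 305 CPM in CRY1 KO. Its groups did not overlap, though WT 3 lay close to the other group, and it passed only without WT 3 (edgeR adjusted p = 0.0306) among the 14 alternatives, not in the fit of all 6 libraries (log2 difference -0.41, SE 0.14, edgeR adjusted p = 0.148).

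H2-Q10, the secreted class I gene, stood at 2214, 1841 and 1483 CPM in WT and at 1705, 1736 and 1397 CPM in CRY1 KO. The groups overlapped, with WT 1 the highest library (log2 difference -0.20, SE 0.16, edgeR adjusted p = 0.519, limma interval -0.54 to 0.18). H2-T23, which encodes Qa-1, a ligand of the NKG2A receptor of natural killer cells, ranged from 118.5 to 152.8 CPM in WT and from 114.0 to 128.4 CPM in CRY1 KO (log2 difference -0.16, SE 0.11, edgeR adjusted p = 0.437). B2m had the smallest difference of the 10 genes, at 1542, 1506 and 1227 CPM in WT and 1390, 1390 and 1246 CPM in CRY1 KO (log2 difference -0.09, SE 0.12, edgeR adjusted p = 0.711). Its limma interval ran from -0.35 to 0.19. The intervals of H2-K1, H2-Q10, H2-T23 and B2m include 0, which does not show that their levels were equal, whereas that of H2-D1 (-0.70 to -0.08) excludes 0 although its adjusted p did not pass.

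**Figure D1:**
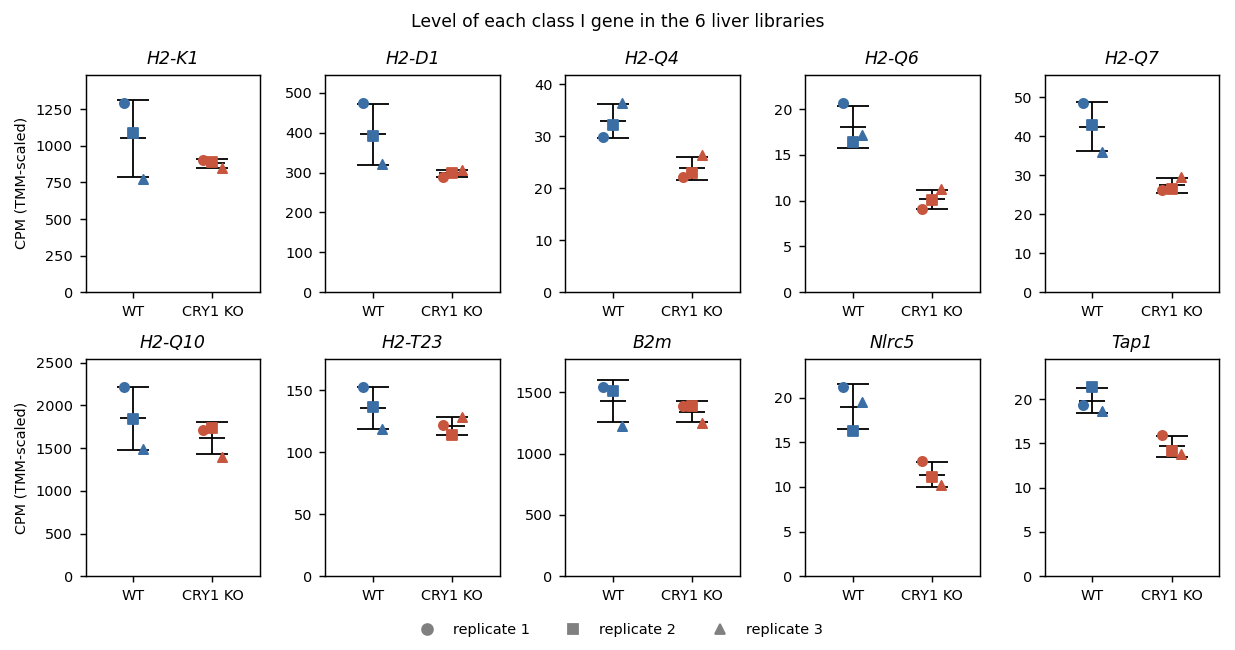
Level of each of the 10 genes (CPM of the TMM-scaled library size, linear axes from 0) in the 3 WT (blue) and 3 CRY1 KO (red) libraries, with symbols for the replicate and bars for mean ± SD. Nlrc5, H2-Q6, H2-Q7, H2-Q4, Tap1 and H2-D1 have no overlap between the groups, while WT 3 lies among or below the CRY1 KO libraries in H2-K1, H2-Q10, H2-T23 and B2m.

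Ratios to H2-K1 within a library compare the Q genes with a classical gene without any scaling of libraries. The log2 ratio of H2-Q6 to H2-K1 was -5.97, -6.06 and -5.49 in WT and -6.64, -6.46 and -6.24 in CRY1 KO, lower in each library labelled CRY1 KO and by 0.61 between the group means. The ratio of H2-Q7 to H2-K1 was -4.73, -4.66 and -4.43 in WT and -5.11, -5.06 and -4.84 in CRY1 KO, also without overlap. The ratio of Nlrc5 to H2-K1 was -5.93, -6.06 and -5.31 in WT and -6.14, -6.32 and -6.38 in CRY1 KO, again lower in each. The groups overlapped in the ratios of H2-D1, H2-Q4, H2-Q10, H2-T23, B2m and Tap1 to H2-K1, whose mean differences lay between -0.24 and 0.14. Within the close pair, the ratio of H2-Q6 to H2-Q7 was -1.23, -1.39 and -1.06 in WT and -1.53, -1.40 and -1.40 in CRY1 KO, a difference in means of -0.21 in which WT 2 lay next to the other group. No test was made of these ratios, and the share of all genes whose ratio to H2-K1 does not overlap was not computed. For levels, the groups did not overlap in 27.3% of tested genes in either direction and in 12.7% in the lower one. H2-Q6, H2-Q7 and Nlrc5 are also the genes called lower, and H2-K1 was not called.

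**Figure D2:**
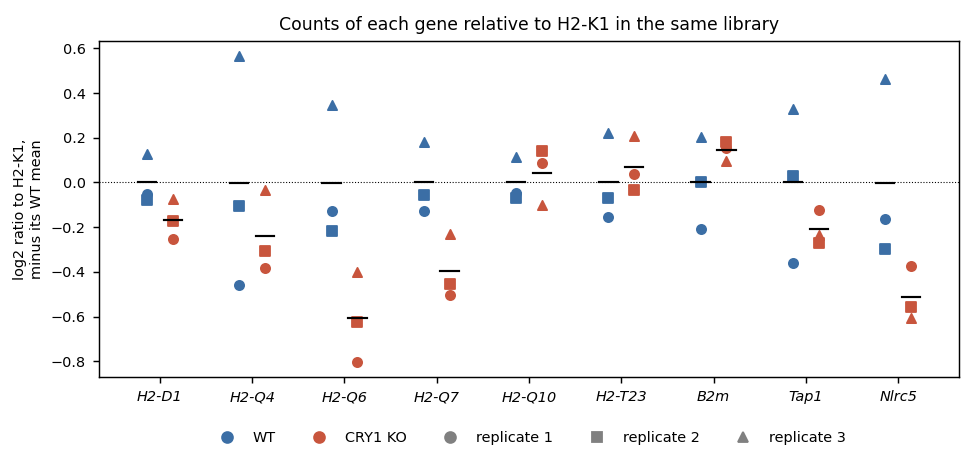
The log2 ratio of each gene's estimated count to that of H2-K1 in the same library, minus the mean ratio of the WT libraries, with bars for group means (WT blue, CRY1 KO red, symbols for the replicate). H2-Q6, H2-Q7 and Nlrc5 lie lower in all 3 CRY1 KO libraries than in all 3 WT libraries, and the other genes overlap.

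Markers of Kupffer cells, the resident macrophages of the liver, moved with some of these genes. All 12 of 12 marker genes were detected in each library and had negative differences, and 0 passed the edgeR test. Of the 12, 8 had an unadjusted p under 0.05, which 9.84% of tested genes had in the lower direction. DESeq2 called 6 and limma 0, against 1284 and 303 of all 13816 tested genes. Their summed level was 663.1, 415.4 and 258.6 CPM in WT 1, 2 and 3 and 238.4 to 241.5 CPM in CRY1 KO. H2-K1, H2-D1, H2-Q7, H2-Q10, H2-T23 and B2m were likewise highest in WT 1 and lowest in WT 3 within WT. H2-Q6 and Nlrc5 were also highest in WT 1 but lowest in WT 2, H2-Q4 was highest in WT 3 and lowest in WT 1, and Tap1 was highest in WT 2 and lowest in WT 3. The marker sum of WT 3 was nearest to that of the other group. In WT 3, Nlrc5, H2-Q4, H2-Q6, H2-Q7, Tap1 and H2-D1 (321 against at most 305 CPM) were above each library labelled CRY1 KO. H2-K1 and B2m were below each, and H2-Q10 and H2-T23 lay among them. Without WT 1 the log2 difference was -0.65 in place of -0.74 for Nlrc5 (edgeR adjusted p = 0.0433) and -0.73 in place of -0.83 for H2-Q6 (0.0209). For H2-Q7 it was -0.52 in place of -0.63 (0.0464), and H2-Q4 passed as well (-0.53 in place of -0.46, edgeR adjusted p = 0.0464). The differences of Nlrc5, H2-Q6 and H2-Q7 thus came closer to 0. So did those of H2-D1 (-0.26 in place of -0.41), H2-K1 (-0.08 in place of -0.26) and H2-Q10 (-0.04 in place of -0.20). The same held for H2-T23 (-0.07 in place of -0.16) and B2m (-0.03 in place of -0.09). Those of H2-Q4 and Tap1 (-0.45 in place of -0.43) moved away from 0. The part of Kupffer cells in these differences was not tested. In bulk RNA, fewer cells of a type and less RNA per cell cannot be told apart.

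Common leukocyte genes (5 of 5 tested) summed to 27.6 to 44.6 CPM in WT and 22.4 to 28.9 CPM in CRY1 KO. Markers of T and NK cells (10 of 12 tested) summed to 4.57 to 5.53 CPM in WT and 3.04 to 4.36 CPM in CRY1 KO, with Cd3d at 0 in CRY1 KO 1 and Prf1 at 0 in CRY1 KO 2. Markers of B and plasma cells (6 of 7 tested) summed to 8.50 to 13.7 and 3.33 to 4.53 CPM, where the plasma cell gene Jchain fell (log2 difference -2.45, SE 0.33, edgeR adjusted p = 0.0194). Markers of sinusoidal and other endothelial cells (10 of 10 tested) summed to 267.2 to 289.6 CPM in WT and 276.6 to 333.1 CPM in CRY1 KO. Of these 10 genes 8 had positive differences, with a median log2 difference of 0.23. In edgeR, DESeq2 or limma 0 passed (3 at an unadjusted p under 0.05 in edgeR). Genes of red cells and platelets (7 of 7 tested) summed to 2974, 1025 and 654.8 CPM in WT 1, 2 and 3 and to 581.6 to 735.7 CPM in CRY1 KO. Neutrophil markers (3 of 6 tested, all with negative differences) summed to 3.66, 2.02 and 1.07 CPM in WT and to 0.95, 0.45 and 0.50 CPM in CRY1 KO without overlap, and S100a8 was at 0 in CRY1 KO 3. Of these 3 genes 0 passed the edgeR test (1 at an unadjusted p under 0.05, 1 called by DESeq2, 0 by limma). Markers of dendritic cells (7 of 7 tested, 4 with positive differences) had a median log2 difference of 0.27. It rests in part on genes of very low count, with Cd209a at 0 and Siglech at 5 estimated counts in WT 1. The 7 markers summed to 7.45 to 8.905 CPM in WT and 7.97 to 9.91 CPM in CRY1 KO, and 0 passed the edgeR test. The median was -0.12 for stellate cell markers (8 of 8 tested, 7 negative) and -0.03 for bile duct markers (5 of 5 tested, 3 negative). In both of these lists 0 passed the edgeR test. The part of these cells in the class I results was not tested.

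**Figure D3:**
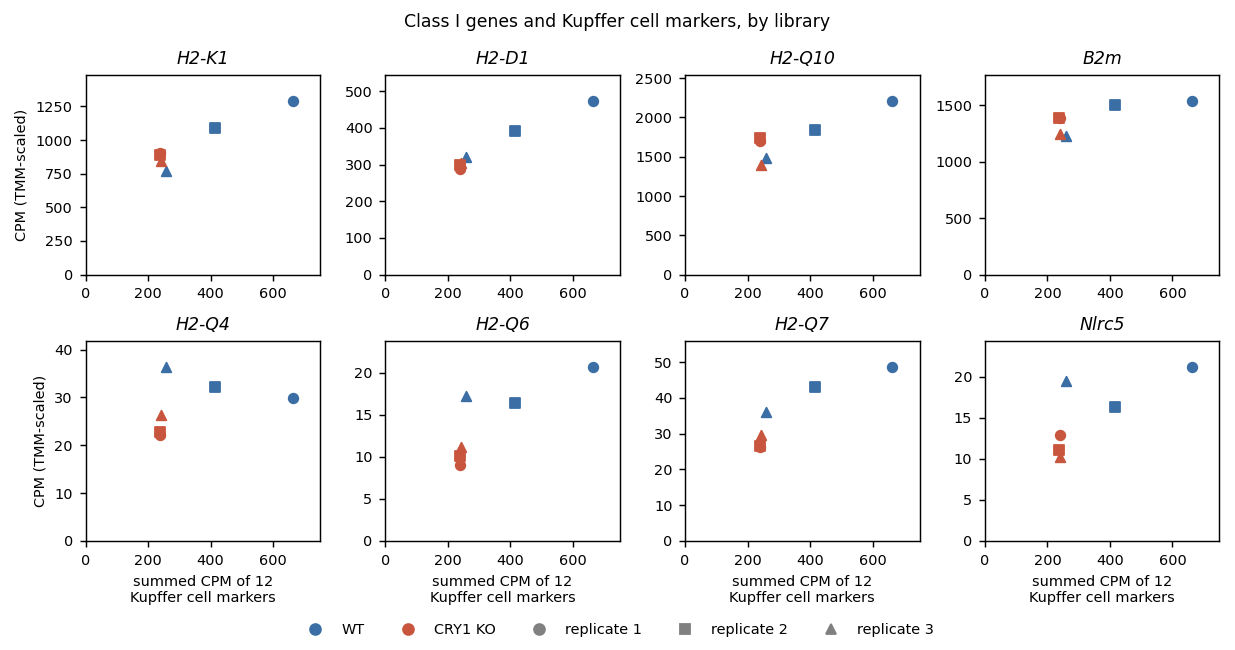
Level of 8 class I genes (CPM, vertical axis) against the summed CPM of 12 Kupffer cell markers (horizontal axis) in the 6 libraries, WT blue and CRY1 KO red with symbols for the replicate. All genes shown but H2-Q4 are highest in WT 1, the library with the highest marker sum. In WT 3, at a marker sum similar to that of CRY1 KO, H2-Q4, H2-Q6, H2-Q7 and Nlrc5 stand above the CRY1 KO libraries. There H2-D1 lies slightly above them, H2-K1 and B2m below them and H2-Q10 among them.

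The median log2 difference of the remaining class I heavy chain genes was -0.72, but it rests on genes of low count and was -0.35 without WT 1. Of 21 further heavy chain genes listed, 5 were tested, all 5 had negative differences and 0 passed the edgeR test (2 at an unadjusted p under 0.05, 1 called by DESeq2, 0 by limma). H2-T22, a ligand of some γδ T cell receptors, ranged from 56.1 to 70.2 CPM in WT and from 55.0 to 57.3 CPM in CRY1 KO (log2 difference -0.22). H2-Q1 had a difference of -0.05, H2-M3, which presents formylated peptides, of -0.72, and H2-T24 of -0.77 with no overlap between groups (edgeR adjusted p = 0.0985). Of 6 tested class I-like genes outside the complex 5 had negative differences and 0 passed in edgeR, DESeq2 or limma (0 at an unadjusted p under 0.05), with a median of -0.05. They include Cd1d1 (-0.18), which presents lipids, the neonatal Fc receptor gene Fcgrt (-0.06), the iron regulator Hfe (-0.03) and Azgp1 (-0.02).

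Of the peptide loading genes, which act between the transporter and the finished complex, none was called. Of 9 tested, 6 were negative, 0 passed in edgeR, DESeq2 or limma (1 at an unadjusted p under 0.05), and the median was -0.09. Tap2, the partner of Tap1, stood at 22.6, 24.2 and 20.5 CPM in WT and 20.2, 17.1 and 19.3 CPM in CRY1 KO (log2 difference -0.25, SE 0.11, edgeR adjusted p = 0.230). Tapbp, which encodes tapasin, the bridge between the transporter and class I, had a difference of -0.17. The chaperone genes Calr (-0.11) and Canx (0.13) the oxidoreductase gene Pdia3 (-0.02) and the sorting receptor gene Bcap31 (0.04) did not pass either. Erap1, the aminopeptidase gene that trims peptides, was 69.9 to 70.6 CPM in WT and 76.0 to 76.7 CPM in CRY1 KO (log2 difference 0.12, edgeR adjusted p = 0.383).

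The immunoproteasome genes, which are induced by interferon and supply class I peptides, all had negative differences with a median of -0.52, which was -0.31 without WT 2. Of these 5 genes 0 passed the edgeR test (2 in DESeq2, 0 in limma), though all 5 had an unadjusted p under 0.05, which 9.84% of tested genes had in the lower direction. Psmb8 stood at 30.4, 28.5 and 16.2 CPM in WT and 14.9, 13.6 and 13.9 CPM in CRY1 KO (log2 difference -0.83, SE 0.22, edgeR adjusted p = 0.101). WT 3 was close to the other group. Psmb9, which lies head to head with Tap1, stood at 13.9, 13.5 and 8.03 CPM in WT and 8.15, 7.14 and 6.68 CPM in CRY1 KO (log2 difference -0.69, edgeR adjusted p = 0.122). Psmb10 had a difference of -0.52, and the activator subunit genes Psme1 and Psme2 of -0.36 and -0.33. WT 3 was the lowest WT library in all of these, as it was in the Kupffer sum, which was not the case for Nlrc5. It was also the lowest WT library in the constitutive genes Psmb5, Psmb6 and Psmb7. Unlike the Kupffer sum, Psmb10 and Psme2 were highest in WT 2. The constitutive catalytic subunit genes Psmb5 (-0.26), Psmb6 (-0.25) and Psmb7 (-0.07) did not pass in edgeR, DESeq2 or limma, and 1 of the 3 had an unadjusted p under 0.05.

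Of 9 tested genes for the factors with which NLRC5 and its class II counterpart CIITA act, 1 fell and 0 rose. It was Nfyb, a subunit gene of the CCAAT-binding factor NF-Y, at 23.8, 29.7 and 33.3 CPM in WT and 17.7, 17.4 and 16.5 CPM in CRY1 KO (log2 difference -0.75, SE 0.13, edgeR adjusted p = 0.0349). No WT library came near the other group. Its partner genes Nfya (0.22) and Nfyc (0.01) did not pass. Rfxank, of the RFX complex, stood at 22.2, 23.8 and 19.4 CPM in WT and 14.5, 15.9 and 15.2 CPM in CRY1 KO without overlap and just missed the threshold (log2 difference -0.52, SE 0.11, edgeR adjusted p = 0.0515). Rfx5 (-0.19), Rfxap (0.21), Creb1 (0.22), Atf1 (0.09) and Ciita (-0.45) did not pass, and the median of the 9 genes was 0.01, with values from -0.08 to 0.10 when a library was left out. DESeq2 and limma each called 2 of the 9.

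Among 16 genes of interferon signalling 0 passed the edgeR test, DESeq2 called 2 and limma 0, and the median was -0.15. An unadjusted p under 0.05 was found for 4 of the 16, against 2860 of all 13816 tested genes. Irf1, an activator of class I genes, overlapped between groups (-0.20), and Irf2 was 35.4, 37.7 and 58.9 CPM in WT and 70.1, 68.4 and 78.1 CPM in CRY1 KO without passing (log2 difference 0.71, edgeR adjusted p = 0.0995). Jak1 (0.15), Ifnar2 (-0.12), Stat2 (-0.10) and Irf3 (-0.31) did not pass. All 5 NF-κB genes had positive differences, from 0.01 for Relb to 0.65 for Nfkbia, the inhibitor gene. Nfkb1 (0.10), Nfkb2 (0.23) and Rela (0.15) lay between them, and 0 of the 5 passed in edgeR, DESeq2 or limma (0 at an unadjusted p under 0.05).

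Of 15 tested genes induced by interferon-γ, the immunity-related GTPase genes Ifi47 (log2 difference -1.08, SE 0.19, edgeR adjusted p = 0.0410) and Irgm2 (-0.59, SE 0.11, edgeR adjusted p = 0.0407) fell, 0 rose and 13 did not pass. DESeq2 called 4 of the 15 and limma 2. Irgm2 stood at 38.0, 36.8 and 39.7 CPM in WT and 27.3, 27.0 and 21.7 CPM in CRY1 KO, with WT 3 the highest library. Ifi47 stood at 28.6, 31.3 and 21.1 CPM in WT and 14.3, 14.3 and 9.78 CPM in CRY1 KO. Irgm1 (-0.67) and Igtp (-0.79) did not pass, and Iigp1, the most abundant of the list, had a positive difference of 0.20, as had Cxcl9 (0.05) and Cxcl10 (0.08). The list median was -0.55, and 12 of the 15 differences were negative. Of the 15, 7 had an unadjusted p under 0.05 in edgeR, which 9.84% of tested genes had in the lower direction. As for the class I genes, the calls of Nfyb, Irgm2 and Ifi47 were lost without WT 2 (edgeR adjusted p = 0.146, 0.145 and 0.159) and without CRY1 KO 1, 2 or 3 (0.101 to 0.160 for Nfyb, 0.101 to 0.141 for Irgm2 and 0.103 to 0.141 for Ifi47). The 8 class II genes had negative differences with a median of -0.38 (-0.23 without WT 2), and 0 passed in edgeR (2 at an unadjusted p under 0.05, 1 called by DESeq2, 0 by limma). Among them were Cd74 (-0.23), the invariant chain gene, H2-Ab1 (-0.41), H2-Aa (-0.18) and H2-Eb1 (-0.36).

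**Figure D4:**
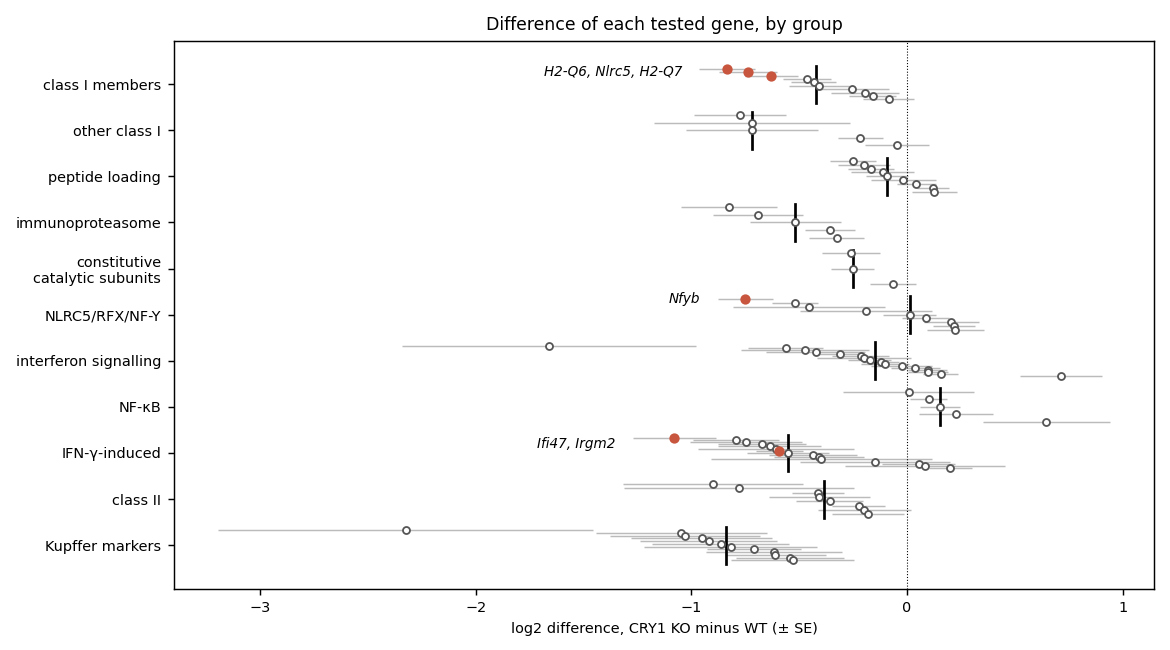
The log2 difference (CRY1 KO minus WT, bars for SE) of each tested gene in the class I set and 10 further groups, with black bars for group medians and filled red points for genes that passed the edgeR test. Nlrc5, H2-Q6, H2-Q7, Nfyb, Ifi47 and Irgm2 passed; the Kupffer marker genes all lie below 0, and 0 of 12 passed.

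Of 11436 genes with a mean level of at least 1 CPM, the 5 whose log2 CPM over the 6 libraries was most like that of Nlrc5 were Rps23 (Pearson r 0.993), Itsn1 (0.985), Spsb4 (0.984), Rpl21 (0.982) and Rfng (0.981). The ribosomal protein genes Rps23 and Rpl21 had small log2 differences of -0.15 and -0.18, and Itsn1 and Spsb4 had -0.49 and -0.94. None of these 5 passed the edgeR test. Among the class I genes, r with Nlrc5 was 0.890 for H2-Q6 (place 261), 0.866 for Tap1 and 0.833 for H2-Q7. It was 0.738 for H2-D1, 0.476 for H2-K1 and 0.354 for B2m (place 3981). These values rest on 6 libraries that share the difference between the groups and are a description of likeness only.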

How the data were processed

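The authors deposited 1 table with a whole-number value per gene and library, taken here as estimated counts because totals differ between libraries and the value 3 was more frequent than 1, 2 or 4 in each, so 1 unit may not be 1 fragment. Build GRCm39 is named in the submitters' processing notes, as are HISAT2 2.2.1, Trim Galore 0.6.7, limma 3.42.2 and StringTie 2.1.7, without order or role. Which annotation was counted, and whether by strand, is not given in the sources used here. The smallest sum of a gene over 6 libraries was 11.

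Genes were filtered with filterByExpr (minimum count 10, minimum total 15) and tested with edgeR 4.0.16 (TMM, quasi-likelihood, robust), the procedure having been tested on simulated data. SE is the absolute log2 difference over the square root of F. Alternatives used DESeq2 1.42.0, limma 3.58.1 (prior count 2), other scalings and filters, a replicate block, each library left out, summed copies and median transcript length. Lengths came from GENCODE M21 in place of RefSeq, which gave none for transcripts. The X1 box was not searched. Groups and replicate numbers came from the titles. The members and lists were chosen with earlier results of these data known. Named genes are the 10 members, from each pathway list the called genes and the 4 most abundant, Irf1, Rfx5, Ciita, Psmb8, Psmb9, Tap2 and Tapbp, and the 5 genes most like Nlrc5; other list genes and all marker genes were named after their values were seen. 1 gene that this rule takes is not reported here.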

Additional observations from a re-analysis of the deposited data

How the results depend on the processing

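Counts of called genes moved with the setting, and the cause was not tested; fits that leave out a library have fewer samples. All genes called were 235 as reported, 113 without scaling, 1284 by DESeq2 and 94 with the replicate block. Of the 10 class I genes 3 were called as reported, 1 without scaling, 5 by DESeq2 and 0 with the replicate block. Of the genes in the other pathway lists 3, 1, 12 and 1 were called in the same order. Leaving out each library in turn gave 17 to 844 genes, 0 to 5 class I genes (0 without WT 2 or any CRY1 KO library) and 0 to 17 list genes. With the replicate block the adjusted p was 0.0648 for Nlrc5, 0.0789 for H2-Q6 and 0.103 for H2-Q7. Deviations of same-numbered libraries correlated at -0.07, -0.01 and 0.07, and not every library correlated best with its own number, so the numbers were not taken as pairs. Without scaling it was 0.0524 for Nlrc5, 0.0602 for H2-Q7 and 0.0394 for H2-Q6. The differences of the 10 class I genes were negative in each of the 14 alternatives, as were those of the summed H2-Q genes in both fits of summed copies.

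With the median transcript length the level per kilobase in WT and CRY1 KO became 1075 and 900.0 CPM for H2-K1, 974.4 and 733.8 for H2-D1, 11.8 and 6.61 for H2-Q6, 3.31 and 1.98 for Nlrc5 and 7.57 and 5.61 for Tap1, and 931.1 CPM for H2-Q10 in CRY1 KO. The lowest estimated count of these genes in a library was 733, for H2-Q6 in CRY1 KO 1, though 1 unit may not be 1 fragment. The H2-D1 levels at the median length rest on 406 bases, against 2102 for its longest transcript.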
